A study of Citrus sinensis with 24 samples.

Results

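The 2 genes described here are the homologs of a cysteine protease, RD21A (Cs8g05200), and of a serine peptidase, XSP1 (orange1.1t00281), among the 24166 genes of the read table. They are the 2 peptidase genes in the study's list of 72 genes that follow the sugar/acid ratio of sweet orange fruits. That list was drawn from the same 24 libraries by correlating expression with the ratio. Only genes that the study found to differ between the fruit stages in any of the varieties entered that correlation. The pair was then taken up for its stage changes in Succari against the other varieties. All contrasts of Succari with the rest, the stage change within each variety and the contrast of Bingtang at 142 days post anthesis (DPA) are therefore given as descriptions, without a test. Fruits of Newhall and Xinhui (normal acidity, labelled acidic), Bingtang (low acid) and Succari (acidless) were harvested from field-grown trees at 45 and 142 DPA, with 3 biological replicates in each of the 8 groups. The labels name the tissue only as fruit, so it is not given which parts of the fruit, or whether seeds, entered a sample. No annotated markers of fruit tissue were at hand to check that label. Whether replicates came from separate trees is not given either, so the spread between them may be partly technical.

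RD21A belongs to the papain-like cysteine proteases, enzymes of the vacuole and secretory pathway that break down proteins. Its Arabidopsis gene takes its name from its response to dehydration, and papain-like proteases as a class are held in check by small inhibitor proteins, the phytocystatins. XSP1 belongs to the subtilisin-like serine proteases, a large plant family of mostly secreted enzymes, and its Arabidopsis gene is named after the xylem. Proteases of both families act in seed filling and germination, in vessel and tracheid differentiation, in senescence and in defence. These roles come from other plants, mainly Arabidopsis.

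Both genes were weakly expressed, and Succari fruits at 142 DPA held most of their reads. The libraries contained 3.76 to 5.89 M counted reads each (M, mega), and expression is given as counts per M counted reads (CPM). RD21A had 150 reads in all 24 libraries together, of which 119 (79.3%) came from the 3 Succari libraries at 142 DPA. XSP1 had 178 reads, of which 101 (56.7%) came from these 3 libraries. Values of single libraries carry 95% exact Poisson intervals and ratios 95% exact (Clopper-Pearson) intervals, which cover counting error only. Both genes passed the filter on low counts (0.3 CPM in at least 3 libraries), and would have done so without Succari at 142 DPA, with 10 of the remaining 21 libraries at that level for RD21A and 12 for XSP1.

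RD21A was near the limit of detection in 21 libraries and well above it in 3. In Succari at 142 DPA it had 11.9 CPM (68 reads, interval 9.22 to 15.1) in replicate 1, 6.78 CPM (37 reads, 4.77 to 9.34) in replicate 2 and 2.61 CPM (14 reads, 1.43 to 4.38) in replicate 3. The intervals of replicates 1 and 3 lie apart, so these fruits of one group differed by more than counting error. In Newhall at 142 DPA the 3 libraries had 0, 0.186 and 0.386 CPM, from 3 reads in all. In Bingtang at that stage they had 0.217, 0 and 0 CPM, from a single read. In Xinhui they had 0.398, 0.361 and 0.521 CPM, from 7 reads. None of these 9 libraries reached the lowest Succari library of that stage.

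At 45 DPA the 4 varieties could not be told apart in RD21A at this depth. Newhall had 0.178, 0 and 0.266 CPM, Xinhui 0.192, 0.509 and 0.391 CPM, Bingtang 0.594, 0.341 and 0.197 CPM, and Succari 0.580, 0.406 and 0.176 CPM. All 12 libraries together held 20 reads and no library more than 3, so the groups overlapped throughout. Ordered by mean, RD21A ran from Succari at 142 DPA (7.09 ± 4.64 CPM, SD, n = 3) to Xinhui at 142 DPA (0.426 ± 0.0835), Succari at 45 DPA (0.387 ± 0.203), Bingtang at 45 DPA (0.377 ± 0.201), Xinhui at 45 DPA (0.364 ± 0.160), Newhall at 142 DPA (0.190 ± 0.193), Newhall at 45 DPA (0.148 ± 0.136) and Bingtang at 142 DPA (0.0724 ± 0.125). Only the first step in this order exceeds the spread between replicates, and every later pair of neighbours overlaps.

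**Figure D1:**
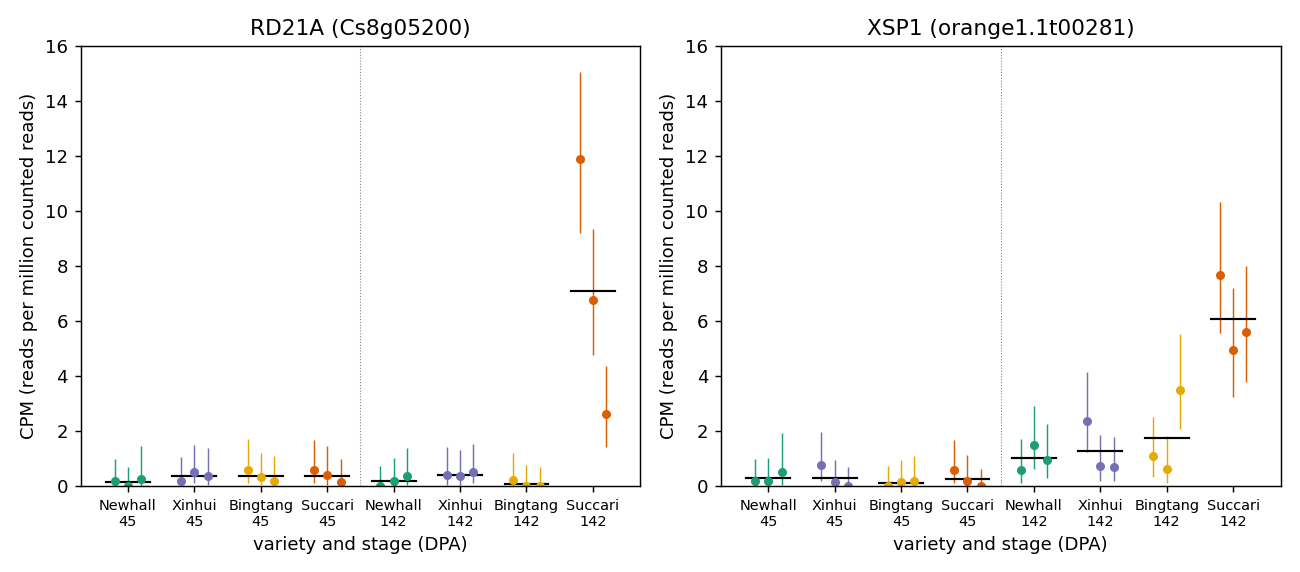
Expression of RD21A (left) and XSP1 (right) in CPM, 1 point for each of the 24 libraries with its 95% Poisson interval, and a black bar for the mean of the 3 replicates of each variety and stage. The 3 Succari libraries at 142 DPA lie between 2.61 and 11.9 CPM for RD21A and between 4.95 and 7.68 CPM for XSP1, above the points of the other 21 libraries.

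XSP1 showed a different pattern, with a level at 142 DPA that could be seen in every variety. In Succari at that stage it had 7.68 CPM (44 reads, interval 5.58 to 10.3), 4.95 CPM (27 reads, 3.26 to 7.20) and 5.60 CPM (30 reads, 3.78 to 7.99) in replicates 1 to 3. These intervals overlap, so no difference beyond counting error was seen between the Succari fruits for XSP1, whereas replicates 1 and 3 differed for RD21A. Bingtang at 142 DPA had 1.09, 0.631 and 3.51 CPM, and the interval of its replicate 3 (18 reads, 2.08 to 5.54) reaches into those of the Succari libraries. Xinhui had 2.39, 0.722 and 0.694 CPM and Newhall had 0.592, 1.48 and 0.965 CPM. The 3 varieties other than Succari overlapped with each other, and all 9 of their libraries stayed under the lowest Succari value.

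At 45 DPA XSP1 was as scarce as RD21A, with 15 reads in 12 libraries. Newhall had 0.178, 0.188 and 0.532 CPM, Xinhui 0.766, 0.170 and 0 CPM, Bingtang 0, 0.170 and 0.197 CPM, and Succari 0.580, 0.203 and 0 CPM. The groups overlapped at this stage. By mean, XSP1 ran from Succari at 142 DPA (6.08 ± 1.43 CPM, SD, n = 3) to Bingtang (1.74 ± 1.55), Xinhui (1.27 ± 0.969) and Newhall (1.01 ± 0.449) at 142 DPA, and then to Xinhui (0.312 ± 0.403), Newhall (0.299 ± 0.202), Succari (0.261 ± 0.295) and Bingtang (0.122 ± 0.107) at 45 DPA. Succari at 142 DPA stood apart from its neighbour in this order by more than the spread, whereas the later neighbours overlapped. For both genes the 3 Succari libraries at 142 DPA lay above the other 21 libraries, which 3.37% of the 20739 genes tested also showed, and which the choice of the genes favours.

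An opposite stage change in Succari and the other varieties was not what these counts showed for either gene. From 45 to 142 DPA, RD21A went from 6 to 119 reads in Succari, a ratio of pooled CPM of 18.9 (interval 8.45 to 52.6). It went from 2 to 3 reads in Newhall (ratio 1.41, 0.162 to 16.9), from 6 to 7 in Xinhui (1.16, 0.334 to 4.18) and from 6 to 1 in Bingtang (0.184, 0.00400 to 1.52). Only Bingtang was lower at 142 DPA by its mean, and its interval includes a ratio of 1. Over the 3 varieties together RD21A went from 14 to 11 reads (ratio 0.794, 0.326 to 1.88), so a fall was not detectable at this depth. For scale, 3.4% of the genes tested had a mean CPM that was higher at 142 DPA in Succari and lower in all 3 others, and neither protease gene was among them.

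XSP1 had a higher mean at 142 than at 45 DPA in all 4 varieties. The ratio was largest in Succari, but its interval overlapped those of the other 3. XSP1 went from 4 to 101 reads in Succari (ratio 24.1, interval 9.13 to 90.2) and from 2 to 26 in Bingtang (14.3, 3.59 to 125). It went from 5 to 20 in Xinhui (3.97, 1.45 to 13.6) and from 4 to 16 in Newhall (3.76, 1.21 to 15.5). A higher mean at 142 DPA in all 4 varieties was seen in 33.8% of the genes tested, which unlike the study's list were not chosen for a stage change. In Bingtang 18 of the 26 reads came from replicate 3. On the log2 scale of the edgeR fit the stage change of XSP1 was 4.59 (SE 0.735) in Succari, 3.76 (SE 1.01) in Bingtang, 2.04 (SE 0.875) in Xinhui and 1.72 (SE 0.967) in Newhall. Its difference between Succari and the mean of the other 3 was 2.08 (SE 1.12), and leaving out 1 library gave as little as 1.44, when Succari 45 DPA replicate 3 was omitted, 1.49 when it was Xinhui 45 DPA replicate 1, and up to 3.52 (without Succari 45 DPA replicate 1, which held 3 of the 4 Succari reads at 45 DPA). The stage change of XSP1 in Xinhui was 3.81 without Xinhui 45 DPA replicate 1, which held 4 of the 5 Xinhui reads at that stage. For RD21A the stage change was 4.24 (SE 0.616) in Succari, against 0.31 (SE 1.45) for Newhall, 0.27 (SE 0.934) for Xinhui and -2.50 (SE 1.46) for Bingtang, and the difference between Succari and the other 3 was 4.88 (SE 1.09), or 4.24 without Succari 142 DPA replicate 1. The small RD21A values of Newhall and Xinhui have no settled sign: that of Newhall was -0.33 without Newhall 45 DPA replicate 2 and -0.70 without Newhall 142 DPA replicate 3, and that of Xinhui was -0.03 without Xinhui 45 DPA replicate 1.

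**Figure D2:**
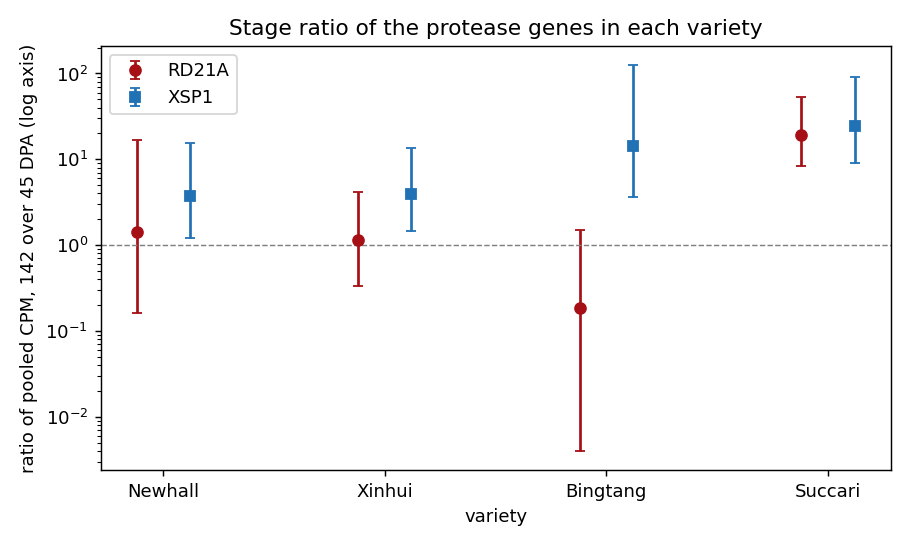
Ratio of pooled CPM at 142 over 45 DPA for RD21A (circles) and XSP1 (squares) in each variety, on a log axis, with 95% exact intervals for counting error and a dashed line at a ratio of 1. The RD21A intervals of Newhall, Xinhui and Bingtang include 1 and that of Succari starts at 8.45, whereas all 4 XSP1 intervals lie above 1. The intervals leave out the spread between replicates, so their place relative to 1 is no test.

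At 142 DPA the gap between Succari and the other varieties was wider for RD21A than for XSP1, and it had different borders. The mean CPM of RD21A in Succari was 30.9 times that in the other 9 libraries, with 119 reads against 11. This ratio was 20.4 without Succari replicate 1, 40.6 without Succari replicate 3, and 27.4 to 36.7 when any 1 of the 9 other libraries was left out. For XSP1 the ratio was 4.53, with 101 reads against 62, and it stayed between 3.93 and 5.68 when any 1 library of this stage was left out. Against single varieties, XSP1 in Succari was 5.97 times Newhall (3.50 to 10.8), 4.99 times Xinhui (3.06 to 8.51) and 3.40 times Bingtang (2.19 to 5.46) by pooled CPM. For RD21A the same ratios were 37.5 (12.5 to 184), 16.8 (7.90 to 42.6) and 104 (18.4 to 4152), the last resting on a single Bingtang read. At 45 DPA the Succari ratio was 1.27 (0.401 to 3.53) for RD21A and 1.08 (0.251 to 3.65) for XSP1.

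Bingtang, whose fruits are low in acid, could not be placed against the normal acid varieties for RD21A, since it held a single read at 142 DPA. At 142 DPA its pooled CPM was 0.221 times that of Newhall and Xinhui (interval 0.00508 to 1.55). For XSP1 it was 1.59 times as high (0.924 to 2.71), a log2 fold change of 0.67 (SE 0.560) that became -0.36 without Bingtang 142 DPA replicate 3. The placing of Bingtang above the normal acid varieties for XSP1 thus rested on that library.

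Contrasts that rest less on the choice of the genes were tested, and neither protease gene was called in them. Newhall and Xinhui, both of normal acidity, were compared at each stage and in their stage change, and Bingtang was compared with their mean at 45 DPA. The sugar/acid ratios at both stages entered the choice, and those of Newhall and Xinhui were not the same at 142 DPA. None of these contrasts is therefore fully independent of the choice, those at 45 DPA included. Their p-values are read as descriptions. The call rule was a difference of 2-fold or more with an adjusted p below 0.05 in edgeR's quasi-likelihood test over 20739 genes. By it, 0 of the 8 tests of the pair passed, 0 of them had an unadjusted p under 0.05, and 0 were called by DESeq2 or limma. Of all genes, 2.96% were called between Newhall and Xinhui at 45 DPA, 6.79% at 142 DPA and 5.61% in the stage change, and 1.16% in Bingtang at 45 DPA. For RD21A the log2 fold change of Newhall over Xinhui was -1.37 with an SE of 1.25 at 45 DPA (adjusted p = 0.638) and -1.33 with an SE of 1.09 at 142 DPA (adjusted p = 0.431). For XSP1 the same values were -0.11 (SE 1.22, adjusted p = 0.990) and -0.43 (SE 0.696, adjusted p = 0.725). The stage changes of Newhall and Xinhui differed by 0.05 (SE 1.73, adjusted p = 1.00) for RD21A and -0.32 (SE 1.41, adjusted p = 0.955) for XSP1. Bingtang at 45 DPA differed from both by 0.75 (SE 0.949, adjusted p = 0.775) for RD21A and -1.21 (SE 1.30, adjusted p = 0.718) for XSP1. With standard errors of 0.696 or more on the log2 scale, differences of about 2-fold were not detectable for either gene.

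The unevenness of RD21A among Succari fruits at 142 DPA ran alongside that of several seed maturation genes. Over the better expressed genes, the seed genes among them, replicates 1 and 2 were also closer to each other than to replicate 3. Whether this held without the seed genes was not tested. The correlation of log2 CPM was 0.903 between replicates 1 and 3, 0.901 between 2 and 3, and 0.972 between 1 and 2. The lowest value within any other group was 0.963, in Bingtang at 142 DPA. Whether RD21A followed the seed genes beyond this split of the libraries was not tested. Oleosin (Cs2g27550), which coats oil bodies, GEA6/Em6 (Cs7g30920) and LEA4-5 (orange1.1t02243), which are late embryogenesis abundant proteins, and the vicilin-like cupin Cs1g23800, a storage protein homolog, served as 4 defining seed genes. They belong to an 8-gene seed list drawn from the same 72 genes, so the list is not independent of these libraries. Their summed level was 3091 CPM in Succari replicate 1, 3430 CPM in replicate 2 and 29.9 CPM in replicate 3, and 4.12 to 25.3 CPM in the 9 other libraries at 142 DPA. At 45 DPA the sum was 0.203 to 2.84 CPM in the 12 libraries, with up to 3 of the 4 genes at 0 in a library. The whole 8-gene list summed to 3969, 4011 and 45.0 CPM in the 3 Succari libraries and to 21.8 to 69.6 CPM in the 9 others at 142 DPA, and to 34.8 to 75.5 CPM at 45 DPA. Outside Succari at 142 DPA a large part of these sums came from 1 lipid transfer gene, Cs5g24670, with 34.1 to 74.1 CPM at 45 DPA and 11.4 to 55.2 CPM in the 9 other libraries at 142 DPA. This gene ran against the defining seed genes, with 2.45, 3.30 and 5.04 CPM in Succari at 142 DPA, where replicate 3 was the highest. In bulk fruit tissue, more cells of a type and more RNA per cell cannot be told apart.

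RD21A differed less between these fruits than the sum of the 4 defining seed genes, and more than 2 other genes of the seed list. From replicate 3 to replicate 1 it differed 4.55-fold, against 104-fold for the defining seed genes, and from replicate 3 to replicate 2 it differed 2.59-fold, against 115-fold. The lipid transfer genes Cs5g31010 and Cs5g24670 spanned 2.34-fold and 2.06-fold over the 3 libraries, the latter in the opposite order. XSP1 differed 1.55-fold at most between the 3 Succari libraries. Xinhui 142 DPA replicate 3 had nearly the seed gene level of Succari replicate 3 (25.3 against 29.9 CPM), and its RD21A was 0.521 CPM (interval 0.107 to 1.52) against 2.61 CPM (1.43 to 4.38), with 3 reads against 14. XSP1 in the same pair of libraries was 0.694 against 5.60 CPM. The lignin laccase gene IRX12 (Cs7g31620), taken as a xylem marker, was likewise uneven in Succari at 142 DPA, at 60.3, 27.7 and 3.36 CPM. XSP1, named after xylem, stayed within the 1.55-fold given above. IRX12 had 0 to 3.28 CPM in the 9 other libraries of that stage and no read at 45 DPA. The part of seed or xylem tissue in the levels of both protease genes was not tested.

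**Figure D3:**
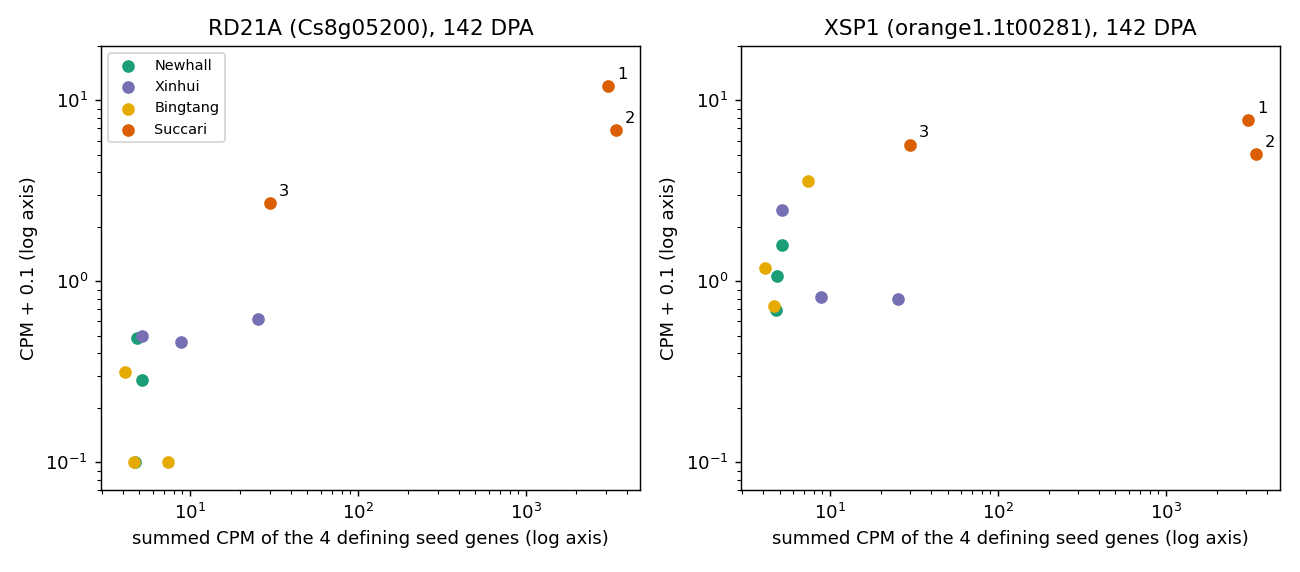
Level of RD21A (left) and XSP1 (right), as CPM + 0.1, against the summed CPM of the 4 defining seed genes in the 12 libraries at 142 DPA, both axes logarithmic, with the Succari replicates numbered. RD21A is highest in Succari replicates 1 and 2, where the seed genes sum to 3091 and 3430 CPM, and the 3 Succari points for XSP1 lie within 1.55-fold of each other although the seed genes span 115-fold.

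Across the 24 libraries the likeness of the pair rested on the high Succari libraries and on the scale. Pearson's r between RD21A and XSP1 was 0.465 on log2(CPM + 0.1) and 0.727 on log2(CPM + 1). On the first scale it was -0.252 over the 21 libraries without Succari at 142 DPA, where most RD21A values are 0 to 3 reads. These correlations and those that follow describe libraries that share groups and depth, and carry no test. Among the other 20738 genes, those most like RD21A were Cs8g19210 (r = 0.891) and Cs7g24410 (0.880), and those most unlike it were Cs2g14600 (-0.898) and Cs6g07040 (-0.866), none of them with a name in the tables used here. Cs8g19210 had 1971, 1155 and 31.0 CPM in the 3 Succari libraries at 142 DPA, in the same order as RD21A. Within the list of 72 genes the next were CYS2 (orange1.1t02370, r = 0.863) and Cs1g20300 (0.855), of unknown function. Without Succari at 142 DPA these r values were 0.267 for CYS2, 0.313 for Cs1g20300 and 0.513 for Cs8g19210. In those 21 libraries RD21A had 0 to 3 reads each and CYS2 had 4 reads in all. Cs1g20300 had group means of at most 0.132 CPM there. Such r values rest on counts near the limit of detection and cannot be set against those of XSP1.

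The genes of the list closest to XSP1 held an r of 0.717 or more without the Succari libraries at 142 DPA. Among all genes Cs5g34510 (r = 0.870) and Cs7g11060 (0.868) were the closest to XSP1, and Cs7g12980 (-0.883) and Cs2g07740 (-0.874) the most unlike. Within the list of 72 genes the closest were the small heat shock protein gene HSP18.2 (Cs7g32260, r = 0.865), the homolog of a TMV resistance protein Cs5g19950 (0.859), and EMB2757 (Cs4g15700, 0.842), whose Arabidopsis homolog is needed for embryo development. Without Succari at 142 DPA their r was 0.780 for HSP18.2, 0.809 for Cs5g19950 and 0.717 for EMB2757. These genes were higher at 142 than at 45 DPA in the mean of each variety, as XSP1 was: the means of Cs5g19950 ran from 2.59 CPM (Xinhui) to 12.9 CPM (Succari) at 142 DPA, against 0 to 0.192 CPM at 45 DPA. In Succari replicates 1 to 3 at 142 DPA, HSP18.2 had 240, 94.7 and 12.1 CPM and Cs5g19950 had 8.73, 10.8 and 19.2 CPM. EMB2757 had 18.5, 14.8 and 14.2 CPM there. Between the Succari fruits HSP18.2 and Cs5g19950 thus spanned more than XSP1 did. Of 20738 genes, 55 reached an r of at least 0.8 with RD21A and 269 with XSP1, among them 7 and 12 of the 71 other genes of the list. The median r with RD21A and XSP1 was 0.508 and 0.657 in the list, against 0.0175 and 0.0542 over all genes. All genes of the list were chosen for following the same ratio in these libraries. Their likeness to each other was therefore favoured in advance and is no result about the pair.

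The list of 72 holds 2 more genes of protein turnover, both highest in Succari at 142 DPA by their means. CYS2 is the homolog of a phytocystatin, an inhibitor of papain-like cysteine proteases such as RD21A, and is itself among the 8 seed genes. It had 92.6, 66.3 and 2.80 CPM in Succari at 142 DPA (530, 362 and 15 reads) and 4 reads in the other 21 libraries together. It was therefore uneven between Succari fruits in the order seen for RD21A, with replicate 3 the lowest. Cs3g01830, an F-box homolog (F-box proteins select targets for ubiquitin ligases), had 1.57, 1.47 and 2.43 CPM in Succari at 142 DPA, from 8 to 13 reads each, and 0 to 0.868 CPM in the 9 other libraries. Over the 24 libraries the r of XSP1 was 0.531 with the F-box gene and 0.614 with CYS2. Without Succari at 142 DPA the order was reversed, with 0.227 for the F-box gene and -0.073 for CYS2. Counts in those 21 libraries were near the limit of detection for both genes.

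Xinhui was the variety in which the F-box gene was not seen. At 142 DPA Cs3g01830 had 0.789, 0.557 and 0.579 CPM in Newhall (10 reads) and 0 reads in all 3 Xinhui libraries. Set against a floor of 3 reads over the 3 Xinhui libraries, it was at least 3.48-fold higher in Newhall, a bound that leaves out the counting error of the Newhall reads, and with that error the lower limit of the 95% exact interval was 2.34. At 45 DPA Newhall had 4 reads and Xinhui none. The gene was chosen for following the sugar/acid ratio over these libraries, in which Newhall and Xinhui differ at 142 DPA. It was among the genes tested in this contrast, but these values are given as a description and its p-value is not read. CYS2 had 4 reads outside Succari at 142 DPA and passed the filter through that group, so no contrast of the other varieties could be read for it.

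**Figure D4:**
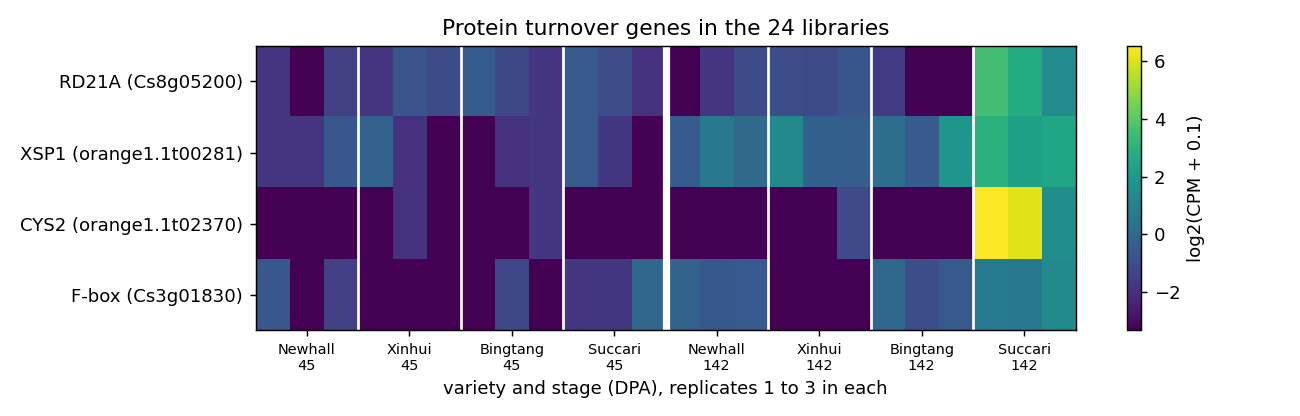
Expression of RD21A, XSP1, CYS2 and the F-box gene Cs3g01830 as log2(CPM + 0.1) in the 24 libraries, grouped by variety and stage with replicates 1 to 3 side by side; the darkest cells are libraries without reads. RD21A and CYS2 are low in replicate 3 of Succari at 142 DPA relative to replicates 1 and 2, XSP1 and the F-box gene are not, and the F-box gene has no read in the 6 Xinhui libraries.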

How the data were processed

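RNA of 24 fruit samples was sequenced, and the authors deposited 1 table of counts of unique reads for 24166 genes, without normalization. The aligner, its settings, the genome build and the handling of strand were not given in the sources used here. Reads of close copies of either protease gene could be split or lost. Groups were taken from the variety and stage labels, and all 24 columns matched a sample. CPM used library totals. Contrasts came from 1 fit of the 8 groups in edgeR 4.0.16 (R 4.3.3, TMM scaling, quasi-likelihood test). It held the 20739 genes with 0.3 CPM or more in 3 or more libraries, with Benjamini-Hochberg adjustment over these genes. The authors also used edgeR. Log2 fold changes of named genes carry no prior count. Limma 3.58.1 and DESeq2 1.42.0 were alternatives, beside other scalings, filters, a replicate block and each library left out. The test was tested on simulated data. Intervals and figures used Python 3.11.15, scipy 1.17.1 and matplotlib 3.10.9.

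The genes, lists and tests were chosen with earlier results of these data known. Named are the 2 protease genes, the other turnover genes of the list of 72, the seed and xylem markers, and, for each protease gene, the 2 genes of highest and the 2 of lowest r and the 3 closest of the list. Gene names are those of Arabidopsis homologs given by the study, since 0 IDs matched the reference table, and no sequence or coordinate was used here. The ratios themselves were not analysed here.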

Additional observations from a re-analysis of the deposited data

How the results depend on the processing

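Over 888 recomputed values, 875 were unmoved: they kept their call or moved by no more than the spread between replicates (0.1 for r). The 888 include the adjusted p of the F-box gene between Newhall and Xinhui at 142 DPA. Numbers of genes called were judged by a separate rule, a limit on the fold difference from the main number. Under it 164 genes against 240 for Bingtang at 45 DPA counted as unmoved. No protease gene was called in any tested contrast under any setting that gave a value, with adjusted p-values of 0.241 or more. With only the groups compared, neither gene passed the filter for Newhall against Xinhui at 45 DPA. Nor did XSP1 for Bingtang at 45 DPA, so these tests were not run in that setting. Fitting only the groups compared raised the genes called to 981 from 614 between Newhall and Xinhui at 45 DPA and to 429 from 240 for Bingtang at 45 DPA; the cause was not tested. With limma the RD21A stage change in Bingtang was -1.61. The r between RD21A and XSP1 was 0.727 on log2(CPM + 1), 0.205 as Spearman's rho, -0.252 without Succari at 142 DPA, and 0.305 to 0.587 with 1 library left out, an alternative added after the data were seen. Leaving out 1 library gave, for XSP1 on the log2 scale, 3.95 to 6.02 for the Succari stage change, 1.31 to 3.81 for that of Xinhui, 1.44 to 3.52 for Succari minus the others, -1.28 to 0.80 for Succari at 45 DPA and -0.36 to 1.04 for Bingtang at 142 DPA. The highest 3 stage values and the -1.28 came without replicate 1 of Succari or Xinhui at 45 DPA, and the -0.36 without Bingtang 142 DPA replicate 3. Without Bingtang 142 DPA replicate 1 no RD21A read was left in that group, so contrasts that include it gave no value. Replicate numbers here are the order of the samples within a group, not the numbers in the sample titles. Same-numbered samples of different groups had a median correlation of deviations of -0.008 over 84 pairs (-0.292 to 0.182). A pairing by the numbers in the titles was not tested. With the replicate block 1373 genes were called between Newhall and Xinhui at 142 DPA against 1408, 1130 in their stage change against 1163 and 235 in Bingtang at 45 DPA against 240, and no protease gene was. Groups of 1 to 7 reads limit every RD21A value outside Succari at 142 DPA.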
